A study of Arabidopsis thaliana with 36 samples.

Results

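The 5 genes described here were grouped as cold-responsive dehydrin and late embryogenesis abundant genes and were followed through translation over 1 day. They were the dehydrin genes COR47 (AT1G20440) and LTI30 (AT3G50970), the chloroplast cryoprotectant genes COR15A (AT2G42540) and COR15B (AT2G42530), and the late embryogenesis abundant gene M17 (AT2G41260). M17 is not among the listed genes of the cold regulon, and a cold response of the 5 genes was not tested. Each was taken from the probe set that names it alone in the platform annotation, which gave 5 of 22810 probe sets, 1 per gene, and 5 of the 13350 genes that a probe set names alone. All plants were Arabidopsis thaliana of the Columbia background carrying a CCA1 overexpressor (CCA1-ox). CCA1 is a MYB transcription factor of the morning part of the circadian clock. The promoter of the transgene and the number of lines are not given in the sources used here. Aerial parts were harvested at an age of 10 days, at 6am, 12pm, 6pm and 12am. Plants stood on agar with sucrose under 16 hours of light, which began at 6am, and 8 hours of dark, so only the 12am harvest fell well inside the night and 6am marks its end. RNA of each harvest was separated on sucrose gradients into non-polysomal, small polysomal and large polysomal fractions. The 12 groups of 1 time and 1 fraction held 3 replicates each, 36 arrays from 12 extracts. Every group carried the transgene. Wild-type plants are not analysed here, so no value separates the transgene from the daily cycle. No probe set of the annotation names CCA1 alone, and its level was not analysed here.

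Dehydrins and related late embryogenesis abundant (LEA) proteins are very hydrophilic, largely unstructured proteins that protect membranes and other proteins when cells lose free water, as in freezing, drought or seed drying. In leaves many of their genes are switched on in the cold by the CBF transcription factors, whose own expression is gated by the clock. The more ribosomes sit on a transcript, the deeper it sediments in a gradient, so the large polysomal fraction holds the transcripts that carry many ribosomes at once.

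Values are log2 expression values, so a difference of 1 is a 2-fold difference. They ran from 2.15 to 15.55 over all arrays, and 25.2% of them sat at the lowest value (within 1e-06), which was the same on all 36 arrays. A probe set was tested if it reached 5 on at least 3 arrays, which 12635 probe sets did, all 5 genes among them. Replicates of a group correlated with r between 0.961 and 0.996. Whether the replicates were grown apart is not given in the sources used here, and the spread behind each p-value may therefore be partly technical. In RNA from whole aerial parts, fewer cells of a type and less RNA per cell cannot be told apart. The tissue label was checked on the green-tissue genes RCA, LHCB4.2, SBPASE and PSAN, whose lowest value on any array was 11.74, while PYK10, best known from roots, had values between 10.41 and 12.48. None of the 8 listed seed markers is named alone by a probe set, so seed tissue was not tested.

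The first question was where in the gradient the transcripts lay. All 5 genes were higher on large polysomes than in non-polysomal RNA over the mean of the 4 times (limma, adjusted p under 0.05), against 42.3% of all tested probe sets called higher. Of these, LTI30 reached 5 on 0 of 12 non-polysomal arrays, so it passed the filter through the polysomal fractions alone and had to differ. All 5 were also higher in the large than in the small polysomal fraction (background 27.8%). Between the small polysomal and the non-polysomal fraction 3 of 5 were called higher (background 36.7%), namely M17, COR47 and LTI30. These comparisons share fractions, so they are not independent of each other. Taken by time, the large minus non-polysomal difference was called for 5 of 5 genes at 6am (background 31.4%) and at 12pm (32.8%), and for 4 of 5 at 6pm (32%) and at 12am (31%), COR15A being the exception at both of the latter. Of the tissue markers, PYK10 was higher on large polysomes by 0.59, and the 4 green-tissue genes lay between -0.29 and 0.22. The part of PYK10-expressing tissue in the results was not tested.

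**Figure D1:**
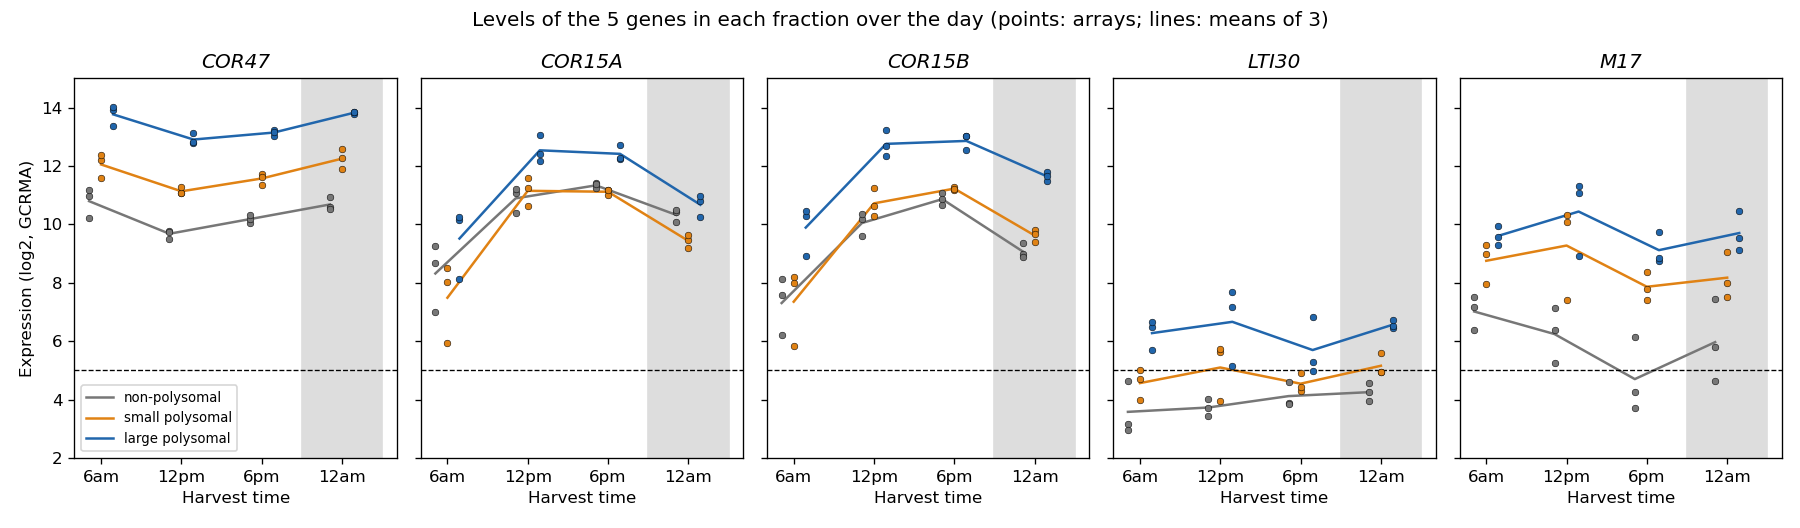
Log2 expression of the 5 genes by harvest time in the non-polysomal (grey), small polysomal (orange) and large polysomal (blue) fraction; points are arrays, lines join the means of 3 replicates, the dashed line marks the filter value of 5 and the grey band the harvest in the dark. COR47 keeps its 3 fractions apart at every time, COR15A and COR15B are lowest at 6am, and all 12 non-polysomal LTI30 values lie under 5.

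COR47, a dehydrin of the cytosol also induced by drought, had its fractions in the same order at every time. At 6am it measured 10.23, 10.99 and 11.18 (replicates 1, 2 and 3) in the non-polysomal, 11.57, 12.20 and 12.39 in the small polysomal and 13.36, 13.92 and 14.03 in the large polysomal fraction. At 12pm the non-polysomal values were 9.79, 9.50 and 9.76, the small polysomal values 11.06, 11.07 and 11.27 and the large polysomal values 12.79, 12.81 and 13.12. The 3 fractions did not overlap at either time, and all 3 were lower at 12pm than at 6am in their means. At 6pm COR47 stood at 10.05, 10.18 and 10.31, then 11.36, 11.72 and 11.63, then 13.02, 13.24 and 13.18, in the same order of fractions. At 12am the values were 10.59, 10.54 and 10.92, then 11.91, 12.26 and 12.59, then 13.78, 13.86 and 13.84. Each large polysomal value thus lay above each small polysomal value of its time, and each of those above each non-polysomal value, at 4 of 4 times. The large polysomal fraction exceeded the non-polysomal one by 3.08 ± 0.11 (SE, n = 3 per group; 8.43-fold; limma, adjusted p = 8.6e-21). Within single extracts this difference ran only from 2.85 to 3.36, and it was positive in 12 of 12. The small polysomal fraction exceeded the non-polysomal one by 1.42 ± 0.11 (limma, adjusted p = 1.9e-12), and the large exceeded the small by 1.66 ± 0.11 (9.3e-13).

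COR15A encodes a small protein that is imported into the chloroplast and stabilises its membranes during freezing. Its order of fractions was different from that of COR47. At 6am it measured 7.00, 8.68 and 9.27 in the non-polysomal, 5.94, 8.50 and 8.03 in the small polysomal and 8.13, 10.15 and 10.26 in the large polysomal fraction. Replicate 1 was the lowest in all 3 fractions there. At 12pm the values were 10.39, 11.08 and 11.20, then 10.63, 11.24 and 11.58, then 12.16, 12.41 and 13.05. At 6pm they were 11.41, 11.23 and 11.37, then 11.19, 11.00 and 11.17, then 12.74, 12.24 and 12.27. At both times in the light the large polysomal values lay above all others. The non-polysomal and small polysomal values were close together, though at 6pm every small polysomal value lay under every non-polysomal one. At 12am the non-polysomal values were 10.41, 10.09 and 10.48, the small polysomal values 9.20, 9.48 and 9.63 and the large polysomal values 10.26, 10.80 and 10.97. At 12am the small polysomal fraction was thus the lowest, as it was at 6pm and, in its mean, at 6am. The non-polysomal and large polysomal values overlapped at 12am, as they did at 6am.

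Over the 4 times COR15A was higher on large polysomes than in non-polysomal RNA by 1.07 ± 0.25 (2.09-fold; limma, adjusted p = 0.00036), in 11 of 12 extracts. It was higher in the large than in the small polysomal fraction by 1.49 ± 0.25 (adjusted p = 1.5e-05, limma), in 12 of 12 extracts. The small polysomal value lay under the non-polysomal one in 9 of 12 extracts, with a mean difference of -0.42 (95% interval -0.94 to 0.10; limma, adjusted p = 0.14). Fractions of 1 extract deviated together, and with the 12 extracts as a block this difference was called (limma, adjusted p = 9.2e-05 with fixed and 0.022 with random terms), as it was without the 6am extract of replicate 1 (-0.39; adjusted p = 0.011). When arrays were instead aligned on their spike-in controls, it was 0.53 and not called, where the median of all probe sets was 0.99. By time, the large minus non-polysomal difference of COR15A was 1.20 at 6am, 1.64 at 12pm, 1.08 at 6pm and 0.35 at 12am. Of these only 12pm (limma, adjusted p = 0.0062) and 6am (0.045) were called, and 6am was lost under many other settings, for example at 0.54 without the non-polysomal array of replicate 1. With the extracts as a random block 6pm was called too (limma, adjusted p = 0.0045). Whether the difference itself changed over the day was not established: the interaction of fraction and time had an adjusted p of 0.54 in limma.

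COR15B encodes a close relative of COR15A, also a chloroplast protein, and the genes are direct neighbours on chromosome 2 in the RefSeq annotation (TAIR10.1). At 6am COR15B measured 6.21, 7.59 and 8.13 in the non-polysomal, 5.85, 8.21 and 7.99 in the small polysomal and 8.92, 10.28 and 10.47 in the large polysomal fraction. As for COR15A, replicate 1 was the lowest in every fraction. At 12pm the values were 9.61, 10.17 and 10.36, then 10.28, 10.63 and 11.26, then 12.33, 12.69 and 13.25. At 6pm they were 11.06, 10.67 and 10.87, then 11.28, 11.18 and 11.22, then 13.03, 12.53 and 13.02, and at 12am 9.0, 9.35 and 8.89, then 9.39, 9.81 and 9.67, then 11.49, 11.80 and 11.66. The large polysomal values lay above both other fractions at 4 of 4 times, the night included. COR15B was higher on large polysomes than in non-polysomal RNA by 2.47 ± 0.22 (5.52-fold; limma, adjusted p = 2e-11), between 1.86 and 2.89 in single extracts. The large exceeded the small polysomal fraction by 2.06 ± 0.22 (limma, adjusted p = 8.5e-09), the eighth highest such difference of the 12635 probe sets. The small polysomal value lay above the non-polysomal one in 10 of 12 extracts, by 0.41 on average (95% interval -0.05 to 0.86; limma, adjusted p = 0.11). With the 12 extracts as a block this was called as well (limma, adjusted p = 5.5e-05 with fixed and 0.012 with random terms), and likewise without the 6am extract of replicate 1 (0.46; adjusted p = 0.0023).

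**Figure D2:**
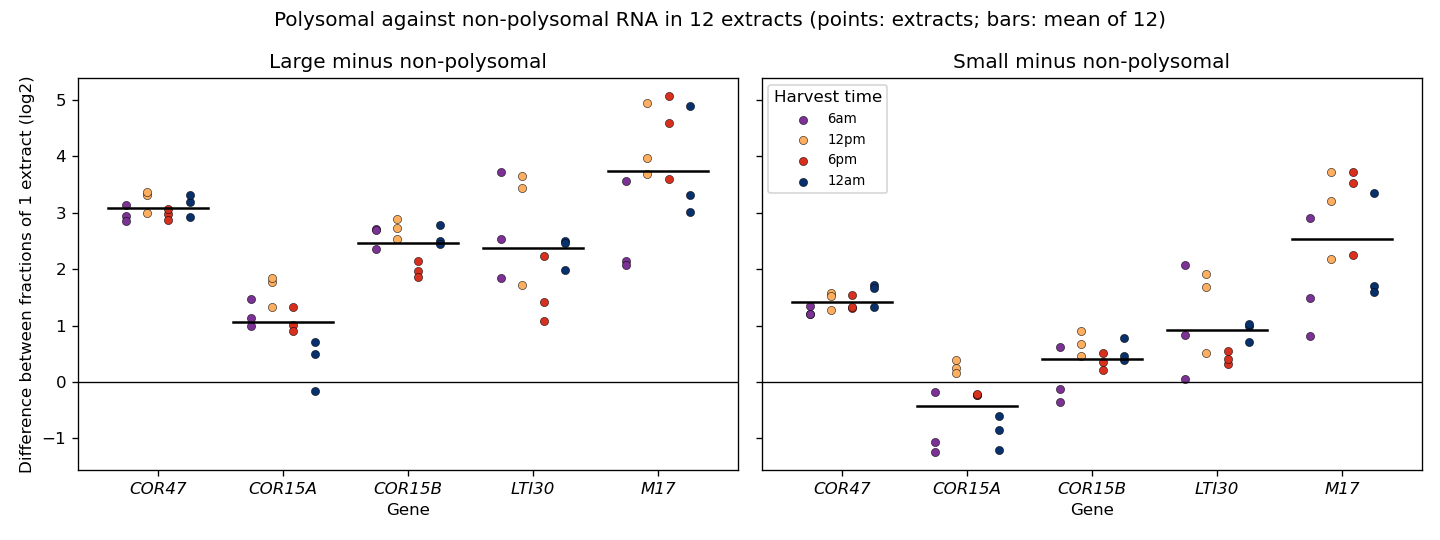
Log2 difference between the large polysomal (left) or small polysomal (right) and the non-polysomal fraction of the same extract for the 5 genes; points are the 12 extracts, coloured by harvest time, and bars are their means. COR47 extracts sit between 2.85 and 3.36 on the left, and COR15A is the one gene whose small polysomal mean lies under 0, at -0.42.

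The dehydrin gene LTI30, whose basic protein binds membranes, was measured near the low end of the scale. Its values were below 5 on 21 of 36 arrays, in all 12 non-polysomal, 8 of 12 small polysomal and 1 of 12 large polysomal samples, though no value sat at the lowest value of 2.15. At 6am it measured 3.16, 4.64 and 2.95 in the non-polysomal, 3.98, 4.69 and 5.02 in the small polysomal and 5.69, 6.49 and 6.66 in the large polysomal fraction. At 12pm the values were 3.43, 3.73 and 4.04, then 3.95, 5.64 and 5.72, then 5.15, 7.17 and 7.68. Replicate 1 was lowest in each fraction at 12pm, and the large polysomal values still did not overlap the non-polysomal ones. At 6pm the values were 4.60, 3.90 and 3.87, then 4.92, 4.30 and 4.42, then 6.84, 4.98 and 5.28. At 12am they were 3.95, 4.56 and 4.25, then 4.94, 5.59 and 4.95, then 6.46, 6.54 and 6.71. At 6pm replicate 1 was the highest in every fraction, so the replicate that stood lowest at 12pm stood highest 1 harvest later.

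LTI30 was higher on large polysomes than in non-polysomal RNA by 2.38 ± 0.26 (5.21-fold; limma, adjusted p = 1e-09), in 12 of 12 extracts, which ranged from 1.08 to 3.71. When every value under 5 was set to 5, the difference was 1.3 and still called (limma, adjusted p = 8.9e-07). With that floor all 12 non-polysomal values stood at 5, so the sign could not turn and was not tested. The size depends on values at the dim end. The difference to the small polysomal fraction was 1.46 ± 0.26 (limma, adjusted p = 2.3e-05), and with the floor it was 1.14 and still called. In contrast, the small polysomal excess over the non-polysomal fraction of 0.92 ± 0.26 (limma, adjusted p = 0.0024) rested on values under 5: with the floor it was 0.16 and not called (adjusted p = 0.49). The large minus non-polysomal difference was called at each time, but at 6pm (1.58) it was not called with the floor (0.71), nor without the large polysomal array of replicate 1 (1.01).

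M17, a glycine-rich LEA gene known from maturing seeds, had the highest mean shift to large polysomes of the 5 over the 4 times, though not at 6am and not by a difference from COR47 that passed its test. At 6am it measured 7.16, 7.50 and 6.40 in the non-polysomal, 7.98, 8.99 and 9.30 in the small polysomal and 9.31, 9.56 and 9.96 in the large polysomal fraction. At 12pm the values were 5.24, 7.13 and 6.37, then 7.42, 10.33 and 10.08, then 8.92, 11.09 and 11.31. At 12pm replicate 1 lay more than 1 unit under the others in each fraction, the replicate that was also lowest for LTI30. At 6pm the values were 6.14, 3.70 and 4.27, then 8.38, 7.43 and 7.79, then 9.73, 8.76 and 8.87. At 12am they were 5.82, 7.45 and 4.64, then 7.51, 9.04 and 7.98, then 9.12, 10.47 and 9.53. Only 3 values were below 5, all non-polysomal, and every polysomal value was above 7. The large polysomal fraction exceeded the non-polysomal one by 3.73 ± 0.36 (13.3-fold; limma, adjusted p = 7.8e-11), the eleventh highest difference of 12635 probe sets. The small polysomal fraction exceeded it by 2.53 ± 0.36 (5.79-fold; limma, adjusted p = 3.5e-07), while the large exceeded the small by 1.20 ± 0.36 (0.0056). For M17 most of the step thus lay between the non-polysomal and the small polysomal fraction, whereas for COR15B it lay between the small and the large polysomal fraction. Setting values under 5 to 5 left the large minus non-polysomal difference at 3.53. It was called at every time, from 2.59 at 6am to 4.41 at 6pm, but at 6am not without the extract of replicate 3 (2.11; limma, adjusted p = 0.054).

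How far the genes differ from each other was tested over the 12 extracts on their large minus non-polysomal values, with an exact two-sided sign-flip permutation test for each of 10 pairs. COR15A had a smaller shift than COR15B by 1.40 in the mean, in 12 of 12 extracts (exact p = 0.00049, the smallest the test can give; adjusted over the 10 pairs 0.0012). Its shift was also smaller than that of COR47 by 2.01 and of M17 by 2.67, each in 12 of 12 extracts, and than that of LTI30 by 1.31 in 11 of 12 (adjusted p = 0.0012, 0.0012 and 0.0020, exact permutation). With values under 5 set to 5 the difference between COR15A and LTI30 was -0.24 and not called. COR47 exceeded COR15B by 0.61 in 12 of 12 extracts (adjusted p = 0.0012, exact permutation). COR15B and LTI30 were not told apart (0.09, adjusted p = 0.70, exact permutation). With the floor LTI30 was the lower by 1.16, a difference that the floor itself makes. It raised all 12 non-polysomal LTI30 values to 5, which can only shrink the LTI30 shift. COR15A and COR15B have no value under 5 and were left unchanged. Neither comparison of LTI30 with these genes under the floor therefore tests whether the shifts differ. COR47 and M17 differed by -0.66, which missed the threshold (adjusted p = 0.059, exact permutation). In all, 9 of 12 extracts had the larger shift for M17.

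The deposited arrays had close medians, from 4.86 to 5.19, so each difference between fractions is relative to the other transcripts of that fraction. The 27 probe sets of the poly(A) spike-in controls averaged 7.90 ± 0.41 (SD, n = 12) on the non-polysomal, 6.95 ± 0.63 on the small polysomal and 5.57 ± 0.54 on the large polysomal arrays. With arrays aligned on these controls the median large minus non-polysomal difference of all probe sets was 2.38, against 0.05 before. The 5 genes then stood at 5.41 for COR47, 3.40 for COR15A, 4.79 for COR15B, 4.71 for LTI30 and 6.06 for M17. The alignment shifts all probe sets of an array alike. The place of the 5 genes above the median is therefore unchanged by it and is no separate check.

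The next question was when in the day the transcripts were high. The level of a gene was the mean of its 3 fractions. The SE and p-values of level changes treat fractions of 1 extract as independent, although these deviated together. They may therefore understate the spread between extracts. For COR15A the SD of the extract levels was 1.23 at 6am and 0.44 at 12pm (n = 3 each). COR15A and COR15B rose together from 6am to 12pm and fell from 6pm to 12am and again to 6am. The step from 6pm to 12am spans hours of light and of dark, so the start of the fall cannot be placed in either. COR47 moved the other way with a smaller change, and LTI30 and M17 showed no difference between light and dark beyond their spread. Over the 4 times 4 of 5 genes changed (moderated F test of limma), against 86.6% of all tested probe sets, so this count is near the background. Between light (12pm and 6pm) and dark (12am and 6am) 2 of 5 were called higher in the light (background 36.1%) and 1 lower (36.5%). By step, 3 of 5 genes were called from 6am to 12pm in either direction (background 66.7%), 2 from 12pm to 6pm (30.6%), 3 from 6pm to 12am (58.9%) and 2 from 12am to 6am (48.6%). Within single fractions 4 of 5 changed over the day in the non-polysomal (background 68.6%) and 3 of 5 in the small (61.3%) and in the large polysomal fraction (59.1%). The 4 green-tissue markers were also called higher in the light, by 0.36 to 0.63, and PYK10 by 0.43; their part in the changes of the 5 genes was not tested.

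**Figure D3:**
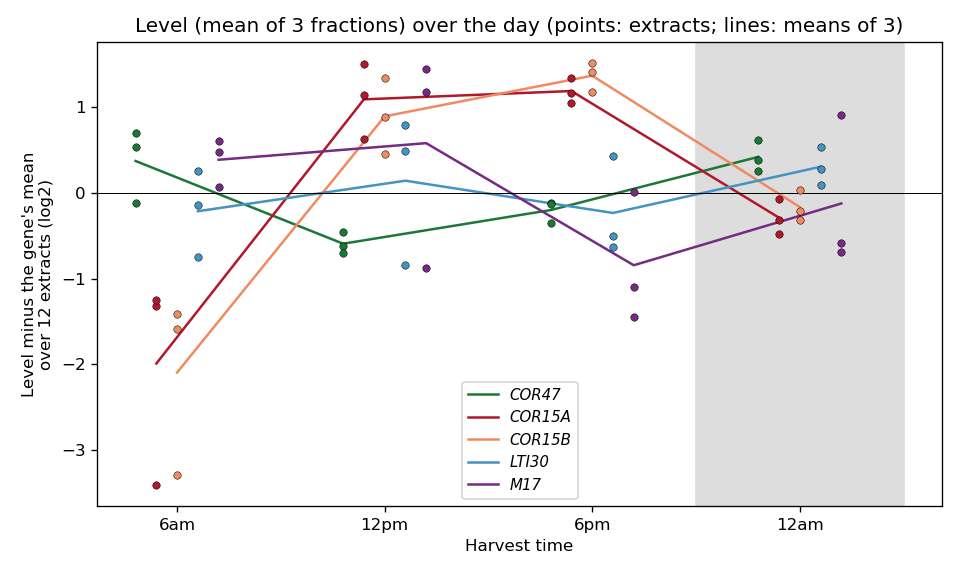
Level (mean of the 3 fractions) of each gene minus its own mean over the 12 extracts, in log2 units, by harvest time; points are extracts, lines join means of 3 and the grey band marks the harvest in the dark. COR15A and COR15B run together from their lowest point at 6am, where replicate 1 lies apart, and COR47 is lowest at 12pm.

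COR15A had levels of 7.02, 9.11 and 9.19 at 6am and of 11.06, 11.58 and 11.94 at 12pm, in the 3 replicates. It stood at 11.78, 11.49 and 11.60 at 6pm and at 9.95, 10.12 and 10.36 at 12am. The 6 extracts in the light lay between 11.06 and 11.94, above all 6 in the dark, which reached 10.36. The level rose from 6am to 12pm by 3.08 ± 0.29 (8.48-fold; limma, adjusted p = 1.5e-10), did not pass the test from 12pm to 6pm (0.10 ± 0.29), and fell by 1.48 ± 0.29 from 6pm to 12am and by 1.70 ± 0.29 from 12am to 6am (limma, adjusted p = 7.5e-05 and 2e-05). Without the 6am extract of replicate 1 the rise to 12pm was 2.38 and the last step -0.99, both still called. Light exceeded dark by 2.28 ± 0.21 (limma, adjusted p = 3.4e-11), or by 1.93 without that extract.

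COR15B had levels of 6.99, 8.70 and 8.86 at 6am, 10.74, 11.16 and 11.63 at 12pm, 11.79, 11.46 and 11.70 at 6pm and 9.96, 10.32 and 10.07 at 12am. The light extracts again lay above all dark ones, from 10.74 against at most 10.32. The level rose by 2.99 ± 0.26 from 6am to 12pm (limma, adjusted p = 1.6e-11), and fell by 1.53 ± 0.26 to 12am and by 1.93 ± 0.26 to 6am (6.8e-06 and 3.7e-07). Without the 6am extract of replicate 1 the rise was 2.40 and the last fall -1.34, both still called. Light exceeded dark by 2.26 ± 0.18 (limma, adjusted p = 2e-12). The daily change was seen in each fraction taken alone, with a range over the 4 time means of 3.56 in the non-polysomal, 3.87 in the small polysomal and 2.97 in the large polysomal fraction (limma F test, adjusted p = 4.2e-07, 5e-08 and 2.6e-06). For COR15A the ranges were 3.02, 3.66 and 3.02, all called, though its fall from 6pm to 12am was not called in the non-polysomal fraction alone (-1.01; limma, adjusted p = 0.12), nor that from 12am to 6am in the large polysomal fraction alone (-1.16; 0.11).

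The light minus dark changes of COR15A and COR15B differed by 0.02, which an exact permutation test of the 12 extracts did not call (p = 0.87). The difference between the genes within an extract ran from -0.09 to 0.41 in the light and from -0.20 to 0.42 in the dark. The same pair of transcripts thus had daily changes that were not told apart, while its shift to large polysomes differed in the same direction in 12 of 12 extracts, by 0.64 to 1.25 in the light and by 1.22 to 2.65 in the dark. The extract of 6am replicate 1, lowest for both genes, was 1.42 and 1.19 under the mean of its group for COR15A and COR15B. The other genes were lowest in it too, COR47 at -0.49, LTI30 at -0.53 and M17 at -0.31 relative to the mean of that time.

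**Figure D4:**
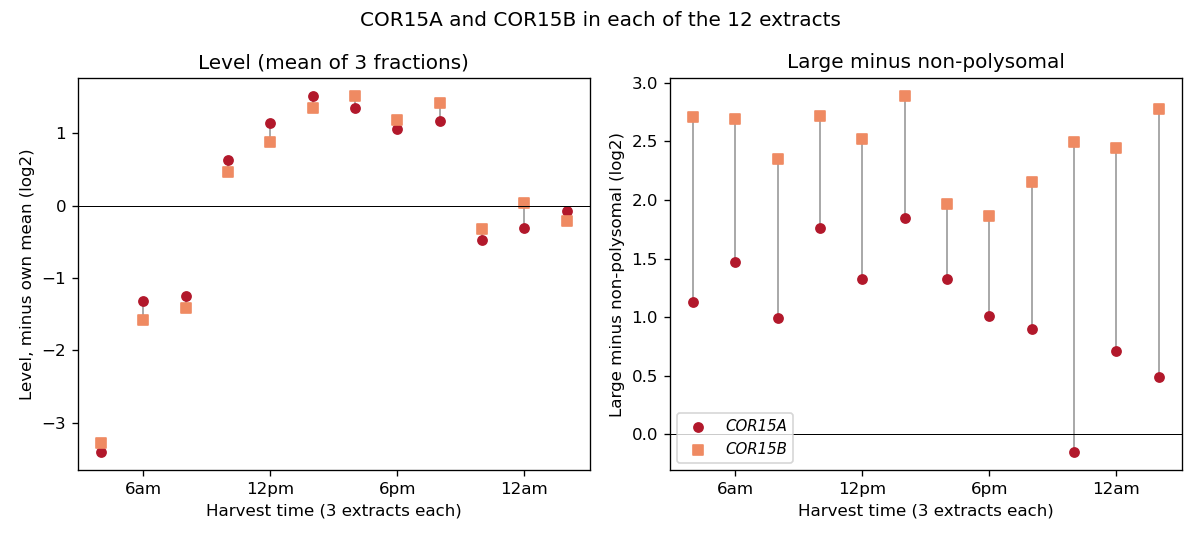
COR15A (circles) and COR15B (squares) in each of the 12 extracts, 3 per harvest time; left, level minus the gene's own mean (log2), right, large minus non-polysomal difference (log2). Grey lines join the genes of 1 extract: they are short on the left and long on the right, where COR15B lies above COR15A in 12 of 12 extracts.

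COR47 had its highest levels in the dark. It stood at 11.72, 12.37 and 12.53 at 6am and at 12.09, 12.22 and 12.45 at 12am, against 11.21, 11.13 and 11.38 at 12pm and 11.48, 11.71 and 11.71 at 6pm. The lowest dark extract (11.72) lay just above the highest light extract (11.71). The level fell by 0.97 ± 0.12 from 6am to 12pm (limma, adjusted p = 6.5e-08) and rose by 0.62 ± 0.12 from 6pm to 12am (8.6e-05). Light was lower than dark, at -0.79 ± 0.09 (1.73-fold; limma, adjusted p = 2.3e-09). With arrays aligned on the spike-in controls this became -0.41 and was not called (adjusted p = 0.11), beside a median of all probe sets of 0.38, and neither were its step of -0.66 after 6am and its step of 0.15 before 12am. The rise of 0.39 ± 0.12 from 12pm to 6pm (limma, adjusted p = 0.018) was not called with the extracts as a random block (0.064). It was also lost without any one of 4 of the 6 extracts concerned, namely 12pm replicates 1 and 2 and 6pm replicates 2 and 3 (0.34 to 0.38; limma, adjusted p = 0.064 to 0.093). The light minus dark change of COR47 differed from that of COR15A by -3.08 and from that of COR15B by -3.06 (exact permutation over 12 extracts, p = 0.0022 for each, the smallest the test can give; adjusted over 10 pairs 0.0054).

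LTI30 levels were 4.28, 5.27 and 4.88 at 6am, 4.18, 5.51 and 5.81 at 12pm, 5.45, 4.39 and 4.52 at 6pm and 5.12, 5.56 and 5.31 at 12am. Light and dark extracts overlapped, with a difference of -0.09 (95% interval -0.52 to 0.34; limma, adjusted p = 0.71). The range over the 4 time means was 0.54 and not called (limma F test, adjusted p = 0.22). It was called without the 12pm extract of replicate 1 (0.87; limma, adjusted p = 0.0058) and without the 6pm extract of replicate 1 (0.87; 0.048), the extracts in which LTI30 stood apart in opposite directions.

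M17 levels were 8.15, 8.68 and 8.55 at 6am, 7.19, 9.51 and 9.26 at 12pm, 8.08, 6.63 and 6.97 at 6pm and 7.48, 8.99 and 7.38 at 12am. Light and dark overlapped here too, with a difference of -0.26 (95% interval -0.86 to 0.33; limma, adjusted p = 0.42). The level changed over the 4 times by a range of 1.43 (limma F test, adjusted p = 0.010) and fell by 1.43 ± 0.41 from 12pm to 6pm (adjusted p = 0.010). Both calls were lost when each extract entered as the average of its fractions (limma, adjusted p = 0.13 for each). The fall became -2.16 without the 12pm extract of replicate 1 and was lost without 12pm replicate 2 (-1.0) or 3 (-1.12) or 6pm replicate 2 (-1.13) or 3 (-1.3). The range became 2.16 without the first of these and was lost without 6pm replicate 2 (1.13) or 3 (1.3). In the non-polysomal fraction alone the range was 2.31 (adjusted p = 0.037, limma), lost at 1.64 with values under 5 set to 5 and without single 6am or 6pm arrays (1.81 to 2.24).

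M17 and LTI30 stood apart together in some extracts only. Relative to the mean of their time, replicate 1 was at -1.46 and -0.99 at 12pm and at 0.85 and 0.66 at 6pm, for M17 and LTI30 in this order. COR15A and COR15B deviated in the same direction in both extracts (-0.47 and -0.44 at 12pm, 0.15 and 0.14 at 6pm), and COR47 by no more than 0.15. At 12am replicate 2 of M17 was at 1.04 and replicate 3 at -0.57, where LTI30 was at 0.23 and -0.02. What sets these extracts apart was not tested.

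No gene had a large minus non-polysomal difference that changed over the day past the threshold of the reported fit. That fit ignores the pairing of fractions within an extract, and fixed extract terms were not fitted for this question. For COR15A the time means of the difference ran from 0.35 to 1.64, with an SD between extracts of 0.22 to 0.45 (n = 3 per time). For COR15B they ran from 1.99 to 2.71, with an SD of 0.14 to 0.20. A missing call is therefore no evidence that the difference stayed constant. The interaction of fraction and time was called for 0 of 5 genes in the F test (background 12.7%), with limma adjusted p from 0.47 for LTI30 to 0.86 for COR47, and for 0 of 5 between light and dark (background 5.47%). Of the 5 light minus dark differences in this shift the largest were 1.14 for M17 (95% interval -0.32 to 2.61) and 0.59 for COR15A (-0.45 to 1.63), so the intervals reach well past 1 on the upper side. For COR47 the interval was narrower, -0.40 to 0.48.

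Other genes of the cold and LEA groups were few in this annotation. Of 23 listed genes of the cold regulon 6 were named alone and all 6 passed the filter; of 19 dehydrin and LEA genes 8 were named and 6 passed; and of 24 regulators of the cold response 1 was, STZ. LEA18, the only LEA gene beside the 5 to pass, was on average 4.24 at 6am, 5.0 at 12pm, 4.13 at 6pm and 3.98 at 12am in the non-polysomal fraction, against 7.66, 8.64, 7.06 and 7.38 in the large polysomal fraction. It was higher on large polysomes by 3.35 ± 0.40 and on small polysomes by 2.51 ± 0.40 (limma, both called), while the large exceeded the small polysomal fraction by 0.84, which was not called (adjusted p = 0.075). Only 3 of its 12 non-polysomal values reached 5, and with values under 5 set to 5 the first pair of differences was 2.61 and 1.77, both still called. With it, 6 of the 8 named dehydrin and LEA genes passed the filter, and all 6 were called higher on large polysomes. Among all tested probe sets the share was 42.3%, but the comparison does not test a trait of the family. Of these 6, 5 are the genes described above. LTI30 and LEA18 passed the filter mainly through the fractions in which they are high. The relatives M10, which reached 5.22, and LEA4-5, which reached 4.33, did not pass the filter.

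The night-high clock outputs of the cold regulon behaved otherwise. COR27 was lower on large polysomes (-1.48 ± 0.10) and in the light (-4.65 ± 0.08). COR28 (AT4G33980) was not called between these fractions (-0.18 ± 0.15) and was lower in the light (-3.58 ± 0.12). Its group means in the light lay between 3.03 and 4.08, so the size of the latter rests on dim values. Only 6 of its 12 non-polysomal values reached 5. With values under 5 set to 5 the fraction difference was -0.20 and not called. STZ, a zinc finger repressor induced by cold and other stresses, was not called between large polysomal and non-polysomal RNA (0.57 ± 0.52). Its values went down to 2.49. At 6am its SD was 2.16 in the non-polysomal, 2.60 in the small polysomal and 2.35 in the large polysomal fraction.

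Over the 12 group means the 5 genes formed more than one pattern. COR15A and COR15B correlated with r = 0.93, and COR47 correlated with LTI30 at 0.90 and with M17 at 0.84, while COR47 and COR15A were at 0.07. These correlations describe 12 points that share arrays and fractions. Among 6823 other probe sets that name 1 gene, those most like COR47 were AT1G76660 and AT3G15970 (r = 0.98 for each) and the tubulin gene TUB7 (0.98). For COR15A they were AT1G22700 (0.97), AGL87 (0.96) and AT1G09920 (0.96), and for COR15B AT3G44620 (0.98), LIL3:1 (0.98) and AT2G03420 (0.98). LTI30 was followed most closely by AT5G23750, AT4G18260 and AT1G29980 (0.96 for each), and M17 by AT3G43670 (0.99), AT3G43240 (0.98) and CHB3 (0.98).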

How the data were processed

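Each of the 36 arrays holds 1 fraction of 1 extract. The authors deposited 1 log2 value per probe set and array, made with GCRMA in R 3.1 with affy 1.42.3, per the submitters' processing notes; other settings are not given in the sources used here. Per the labels' protocols, cDNA synthesis was primed with oligo(dT). How GCRMA alters differences among dim probe sets was not tested.

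The 64 control probe sets were left out, and 12635 probe sets with a value of at least 5 on at least 3 arrays entered a linear model (limma 3.58.1, R 4.3.3; 12 group means, 24 residual degrees of freedom; called at a Benjamini-Hochberg adjusted p under 0.05). SE values are those of this fit. Gene pairs were compared by exact permutation over extracts. The fit was tested on simulated data. Fractions with the same time and replicate number deviated together (36 of 36 pairs above r = 0.1, median 0.42), so numbers pair the fractions of an extract; the reported fit ignores this and alternatives block on it. Equal numbers also correlated across times within a fraction (33 of 54 pairs above 0.1), so the 12 extracts that the exact tests treat as independent may not be fully so.

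The genes named are the 5 members, listed cold and LEA genes past the filter, and the 3 genes most alike each member. Members and lists were chosen with earlier results of these data known. Gene names come from the platform annotation and RefSeq. Precision is limited by the number of extracts, 12, as well as by that of arrays, since fractions of an extract deviated together. Plots used matplotlib 3.10.9 (Python 3.11.15).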

Additional observations from a re-analysis of the deposited data

How the results depend on the processing

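Of the values of the 5 genes under other settings, 2595 kept direction and call, 106 lost a call, 52 gained one and 44 changed sign. All 12635 tested probe sets stood behind the counts unless a setting changed the filter; LTI30 did not pass a filter at log2 7. The calls of the 5 genes between large polysomal and non-polysomal RNA and between large and small polysomes, over the mean of the 4 times, held under every setting in which the gene was tested. For LTI30 the first of these calls says nothing of stability. It reached 5 on 0 of 12 non-polysomal arrays, so it passed the filter through the polysomal fractions alone. Leaving out each extract in turn was chosen after seeing the data. Unless a sentence names a cause, the cause was not tested.

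With arrays aligned on spike-in controls the probe sets called moved to 12249 between large and small polysomes, to 11991, 11751 and 11980 between large polysomal and non-polysomal RNA at 6am, 6pm and 12am, to 6811 for the level over the 4 times, to 4571, 500 and 1398 for the steps from 6am, 12pm and 12am, to 3698, 1783 and 2756 over the day in the non-polysomal, small and large polysomal fraction, and to 7 for the shift to polysomes over the day and 7 for it between light and dark. Of the 5 genes 2 were then called in level over the day, 2 in the non-polysomal fraction and 0 from 12pm to 6pm. Signs turned there for COR15A between small polysomal and non-polysomal RNA (0.53), for light minus dark level in LTI30 (0.30) and M17 (0.12), and for light minus dark shift in COR47 (-0.27).

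Pairing by extract changed some calls. Taking the 12 extracts as random blocks, 4385 probe sets changed in shift over the day and 2010 between light and dark, against 1599 and 691, and 1625 changed in level from 12pm to 6pm, with 1 of the 5 genes among them. Between small polysomal and non-polysomal RNA all 5 genes were called in either direction with extracts as random (5) or fixed terms (5). COR15A was lower on small polysomes and the other genes were higher. In the fit without blocks 8635 of 12635 probe sets were called in either direction, and the share with blocks is not given here. The LTI30 difference rested on values under 5. The replicate number as a block gave 2635 and 1116 for the shift. With the 3 fractions averaged first, 729 probe sets and 0 of the 5 genes were called from 12pm to 6pm and 3898 probe sets from 12am to 6am. The shift as the mean of both polysomal fractions gave 953 and 365. With values under 5 set to 5, 1187 were called for the shift between light and dark. Under cyclic loess and under quantile normalization 1 of the 5 genes was called from 12pm to 6pm, and COR47 from 12am to 6am was 0.075 and 0.053. COR15A from 12pm to 6pm was -0.0035 under quantile normalization.

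Each fraction alone has 12 arrays and so fewer samples. The step from 12pm to 6pm was called for 1478, 599 and 184 probe sets in the non-polysomal, small and large polysomal fraction, and for 0 of the 5 genes in each. The step from 6pm to 12am was called for 4466, 4302 and 4826, with 1 of the 5 genes in the non-polysomal fraction. The step from 12am to 6am gave 2884 in the small and 2669 in the large polysomal fraction, with 1 of the 5 genes in the latter. Signs turned in the non-polysomal fraction for COR47 from 12am to 6am (0.11), LTI30 from 12pm to 6pm (0.39), LTI30 between light and dark (0.0069) and M17 from 6am to 12pm (-0.77). In the small polysomal fraction they turned for COR15A from 12pm to 6pm (-0.032) and M17 between light and dark (0.11). In the large polysomal fraction they turned for the same COR15A step (-0.12), for M17 between light and dark (0.12) and for M17 from 12am to 6am (-0.10).

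Without single replicates, extracts or arrays the probe sets called ranged from 4510 to 7467, from 5360 to 8747 and from 4575 to 7638 over the day in the large polysomal, non-polysomal and small polysomal fraction, from 3708 to 6304 for the step from 12am to 6am, from 829 to 4203 for that from 12pm to 6pm, from 25 to 2165 for the shift over the day and from 17 to 1551 for the shift between light and dark. Genes called ranged from 3 to 5 for large minus non-polysomal RNA at 6am, from 2 to 5 for small minus non-polysomal RNA, from 2 to 4 over the day in the non-polysomal, 3 to 5 in the small and 2 to 5 in the large polysomal fraction, from 3 to 5 for the steps to 12pm and to 12am, from 0 to 3 for that to 6pm, and from 0 to 1 for the shift over the day. Without 1 replicate number 8 extracts remain, where the smallest exact permutation p is 0.029 before adjustment. Of the 10 gene pairs 0 were then called between light and dark, at a smallest adjusted p of 0.071, so these lost calls say nothing of stability; the difference between COR47 and COR15A, for example, ran from -3.22 to -2.87.

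Ranges that crossed 0 on leaving samples out were, for level, -0.21 to 0.32 for COR15A and -1.20 to 0.080 for LTI30 from 12pm to 6pm, -0.21 to 0.19 for COR47 from 12am to 6am, -0.10 to 1.38 for M17 from 6pm to 12am, -0.24 to 0.92 for M17 from 6am to 12pm, and for light minus dark -0.26 to 0.16 in LTI30 and -0.48 to 0.10 in M17. For the light minus dark shift they were -0.47 to 0.048 in COR15B, -0.063 to 0.18 in COR47 and -0.55 to 0.13 in LTI30. The difference between COR15A and COR15B in light minus dark level ran from -0.041 to 0.13, and that between COR15B and LTI30 in shift from -0.020 to 0.26.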
